A study of Mus musculus with 20 samples.

Results

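In the livers of old mice, 1232 of the 20120 H3K14ac peaks on chromosomes 1 to 19 lay on a Kap1 peak and on no Setdb1 peak. These H3K14ac/Kap1 regions were chosen by position alone. A region was counted if it shared at least 1 bp with an old Kap1 peak and no base with an old Setdb1 peak, so the presence of Kap1 and the absence of Setdb1 describe the rule and are not findings. The peaks came from genome-wide location analysis (ChIP-Seq), in which chromatin fragments pulled down with an antibody are sequenced. Livers were from wild-type C57BL/6 males, young (3 months) or old (21 months), with no treatment in either group. Reads of 3 livers per age were merged for H3K14ac and for Setdb1 and of 2 livers per age for Kap1, as the methods and labels of the study have it, while figure legends of the study give 2 or 1. Each mark and age was thus 1 list of positions from pooled whole liver, without heights or scores. The depth behind a peak is unknown, no spread between livers can be given, and fewer cells of a type cannot be told apart from less signal per cell.

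Acetylation of lysine 14 of histone H3 (H3K14ac) is a mark found at active promoters and enhancers. Kap1 (Trim28) is a corepressor that does not bind DNA itself. KRAB zinc finger proteins bring it to DNA, and it in turn recruits Setdb1, a methyltransferase that trimethylates lysine 9 of histone H3, the mark of heterochromatin. Kap1 is known for silencing transposable elements and for binding the 3' exons of zinc finger genes and imprinted control regions. H3K14ac together with Kap1 and without Setdb1 is therefore a combination of a mark of open chromatin with a factor of closed chromatin.

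The sequence of 1 region shows the kind of exon at which Kap1 is known to sit. Below are 300 bases from the exon of the predicted gene Gm14412, on the minus strand of GRCm38 (mm10) at chr2:177314693-177314992, inside the H3K14ac/Kap1 region chr2:177314342-177315344. The capitals mark 4 copies of the 15 bases that encode the linker between neighbouring zinc fingers (threonine, glycine, glutamate, lysine, proline).
Gm14412: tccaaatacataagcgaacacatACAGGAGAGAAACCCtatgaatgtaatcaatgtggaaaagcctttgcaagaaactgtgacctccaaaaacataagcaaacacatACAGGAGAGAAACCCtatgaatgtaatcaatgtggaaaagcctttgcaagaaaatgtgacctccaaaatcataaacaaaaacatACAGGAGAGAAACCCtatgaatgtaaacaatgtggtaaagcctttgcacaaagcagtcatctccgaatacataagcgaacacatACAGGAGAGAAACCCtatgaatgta
The whole region held 9 such linkers and lay on coding sequence, and Kap1 covered each of its 1003 bases. It was nevertheless a rare case. In 6 reading frames the linker sequence was found in 5 of the 1232 regions, the others being at Zfp981 (3 matches), Mzf1 (2), Sfi1 (1) and Hjurp (1). The region at Hjurp touched no coding sequence and that at Sfi1 was 15852 bp wide, so these matches need not be zinc finger linkers. Among regions of exactly 500 bp, that at Hjurp included, the linker sequence was found in 3 of 1041, or 0.288% (95% Wilson interval 0.0981% to 0.844%). It was found in 0.103% of the 18501 old H3K14ac peaks of 500 bp with neither factor. In young liver, 0.501% of the 1798 H3K14ac peaks of 500 bp with Kap1 and without Setdb1 had it.

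Most regions held no such exon. The next sequences show 3 of them around the middle of the bases shared with Kap1, with the bases of the old Kap1 peak in capitals, all on the plus strand of GRCm38. The first is from an intron of Cyp2c29, a drug-metabolising cytochrome P450 of hepatocytes, at chr19:39294634-39294883. The second is from the vomeronasal receptor gene Vmn2r-ps159, annotated as protein-coding, at chr4:156334555-156334804. The third is from an intron of Copg2, an imprinted gene for a coatomer subunit, at chr6:30804695-30804944.
Cyp2c29: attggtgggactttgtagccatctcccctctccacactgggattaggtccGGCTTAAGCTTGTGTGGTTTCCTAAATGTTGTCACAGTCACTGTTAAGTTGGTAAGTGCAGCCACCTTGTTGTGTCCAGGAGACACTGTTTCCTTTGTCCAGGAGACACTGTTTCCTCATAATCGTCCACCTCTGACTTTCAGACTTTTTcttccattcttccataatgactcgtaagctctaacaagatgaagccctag
Vmn2r-ps159: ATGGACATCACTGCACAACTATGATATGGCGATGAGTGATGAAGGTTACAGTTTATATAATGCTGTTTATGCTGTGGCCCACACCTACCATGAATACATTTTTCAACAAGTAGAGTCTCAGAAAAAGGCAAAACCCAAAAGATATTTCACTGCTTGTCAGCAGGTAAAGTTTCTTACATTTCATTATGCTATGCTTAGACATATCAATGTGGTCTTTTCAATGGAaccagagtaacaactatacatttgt
Copg2: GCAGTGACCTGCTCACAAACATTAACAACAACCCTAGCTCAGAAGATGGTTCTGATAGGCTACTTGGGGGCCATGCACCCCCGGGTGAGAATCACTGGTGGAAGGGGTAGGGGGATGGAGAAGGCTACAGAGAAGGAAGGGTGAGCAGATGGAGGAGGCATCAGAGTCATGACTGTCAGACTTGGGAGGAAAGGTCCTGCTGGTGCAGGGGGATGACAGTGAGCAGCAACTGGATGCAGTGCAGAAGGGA
In Cyp2c29 the Kap1 peak was 150 bp wide and lay whole inside the H3K14ac peak. In Vmn2r-ps159 the peaks shared 225 bp, and in Copg2 Kap1 covered the H3K14ac peak from end to end.

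Other regions held stretches that were near-copies of each other. The pair below comes from an intron of the zinc finger gene Zfp981 (chr4:146517534-146517753) and from the long noncoding RNA gene C230088H06Rik (chr4:147237111-147237330), on the plus strand, with the 10 positions of 220 at which they differed in capitals.
Zfp981 region: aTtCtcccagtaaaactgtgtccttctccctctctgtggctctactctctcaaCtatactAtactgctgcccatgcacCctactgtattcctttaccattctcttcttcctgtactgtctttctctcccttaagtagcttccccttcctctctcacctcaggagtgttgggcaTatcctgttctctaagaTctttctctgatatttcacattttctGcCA
C230088H06Rik region: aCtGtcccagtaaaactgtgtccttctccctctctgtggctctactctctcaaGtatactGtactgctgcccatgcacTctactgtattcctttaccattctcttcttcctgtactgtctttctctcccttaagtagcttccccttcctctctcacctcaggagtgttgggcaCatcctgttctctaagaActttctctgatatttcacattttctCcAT
Both stretches lay in an H3K14ac/Kap1 region of their own. This pair was picked after the regions were seen, as the one with fewest differences among the stretches of these 2 genes that were compared. Identical stretches were left out.

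The rule took 6.12% of the old autosomal H3K14ac peaks. With each peak cut or extended to 200 bp at its centre it took 701 (3.48%), and with at least 50% of the Kap1 peak covered 763 (3.79%). A further 98 peaks (0.487%) lay on Setdb1 only, 67 (0.333%) on both factors and 18723 (93.1%) on neither. In young liver, the same rule with young lists took 2066 of 18885 peaks, or 10.9% (95% Wilson interval 10.5% to 11.4%). These intervals cover counting error only. The young Kap1 list held 48915 peaks and the old list 22141, so the larger young class comes with a larger Kap1 list, and whether the ages differ was not tested. The 1232 regions covered 0.773 Mb and touched 1050 Kap1 peaks, which was 4.91% of the 21390 old Kap1 peaks on chromosomes 1 to 19.

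The overlap with Kap1 was broad in most regions. The median region shared 261 bp with 1 Kap1 peak, the lower quartile was 150 bp and the upper quartile 500 bp. A whole Kap1 peak lay inside the H3K14ac peak in 424 regions (34.4%), and in 262 regions (21.3%) Kap1 covered the H3K14ac peak whole. The midpoints of both peaks were a median of 162 bp apart. Kap1 peaks on these regions had a median width of 285 bp, and 32.8% of them had the commonest width of 150 bp, whereas 88.6% of the 20287 old Kap1 peaks away from H3K14ac were 150 bp wide. A wide peak touches another more often, so this difference in width is partly built into the rule. At the edge of the rule, 17 regions shared under 10 bases with Kap1, the fewest being 1 base at the start site of Sept11, a septin gene, and in an exon of Mzf1, a zinc finger gene. Outside the rule, 5 H3K14ac peaks lay under 10 bp from a Kap1 peak, the nearest at 1 bp. The nearest old Setdb1 peak to a region was 45 bp away, and 7 regions had one within 200 bp.

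**Figure D1:**
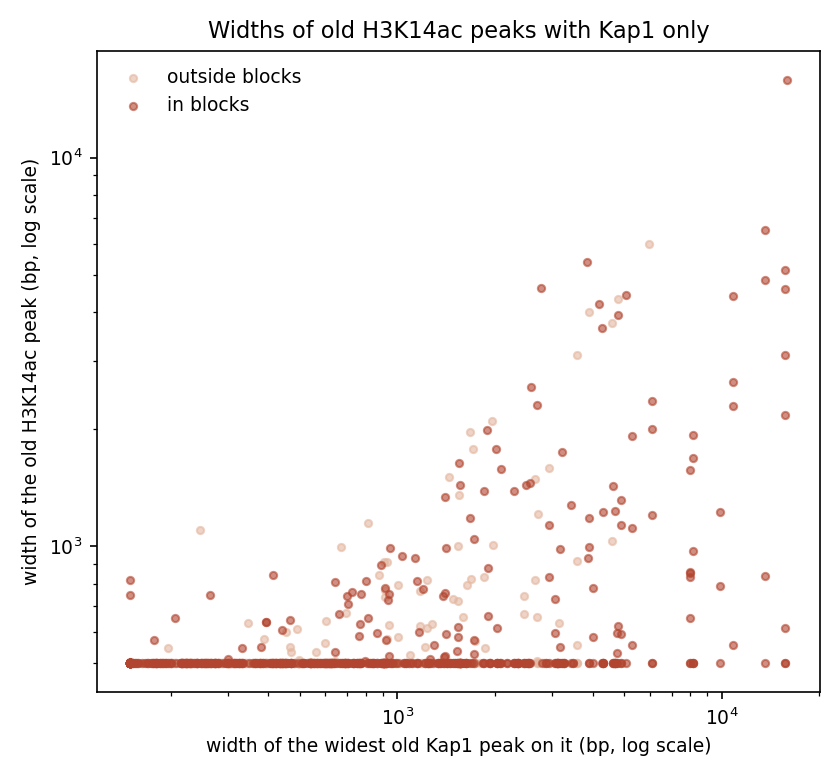
Each point is 1 of the 1232 old H3K14ac/Kap1 regions, with the width of the H3K14ac peak on the vertical axis and of the widest old Kap1 peak on it on the horizontal axis (bp, both log scales), dark for regions in blocks of 10 or more. The row of points at 500 bp holds 84.5% of the regions, and the point at the upper right is the 15852 bp peak at Sfi1.

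H3K14ac peaks were broader here than where neither factor lay, which the rule in part sets, since a wider peak meets a Kap1 peak more often. Of the regions, 191 (15.5%) were wider than 500 bp and 66 (5.36%) wider than 1000 bp, against 0.0855% over 1000 bp among peaks with neither factor, 4.50% among young H3K14ac/Kap1 regions and 14.9% (10 of 67) among old peaks with both factors. The widest was 15852 bp and covered the start of Sfi1, which encodes a centrin-binding protein of the centrosome, and the 3' end of Drg1, a GTP-binding protein gene. Its Kap1 peak was 15870 bp wide, and the young H3K14ac and Kap1 peaks there were 15837 bp and 15875 bp wide. The second, at the Ugt1a genes for enzymes that conjugate glucuronic acid to bilirubin and drugs, was 6518 bp wide and its Kap1 peak 13558 bp. The third, of 5999 bp at chr17:39842910-39848908 (Gm26917 and Gm42418), lay on a Kap1 peak of 5971 bp and on young H3K14ac, Kap1 and Setdb1 peaks of 5956, 5971 and 5972 bp. The remaining 7 of the 10 widest regions, 4402 to 5405 bp, all lay on chromosome 1 between Ugt1a and Trpm8. Broad H3K14ac calls here went with broad Kap1 calls. Of the 10 widest regions 8 had no young Setdb1 peak, and most regions of any width had none, since 8.20% of the 1232 lay on one. Of 160 regions wider than 500 bp that lay on a young H3K14ac peak, 126 had a young peak wider than 500 bp too. Neither an input track nor a list of regions with artefact signal was used here, so these broad peaks were not set against one.

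The regions lay at start sites less often than peaks with neither factor. Within 1 kb of a start site were 178 of them, or 14.4% (95% Wilson interval 12.6% to 16.5%), whereas 38.2% (37.5% to 38.9%) of the peaks with neither factor lay there, 9.18% of the 98 with Setdb1 only and 10.4% of the 67 with both. Within 5 kb the shares were 37.3% (34.6% to 39.99%) and 52.0% (51.3% to 52.8%) for regions and for peaks with neither factor. An exon away from start sites held 106 (8.60%), of which 64 were on coding sequence and 43 on a UTR. Introns held 360 (29.2%) and the space between genes 588 (47.7%), against 25.7% and 30.04% of peaks with neither factor. Of the young H3K14ac/Kap1 regions, 13.2% (11.8% to 14.7%) lay within 1 kb of a start site and 52.6% (50.5% to 54.8%) between genes. For the start sites of protein-coding genes the shares were 8.44% of the old regions, 6.20% of the young regions and 34.8% of the peaks with neither factor. These differences between classes were described and not tested, since no class has replicates.

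**Figure D2:**
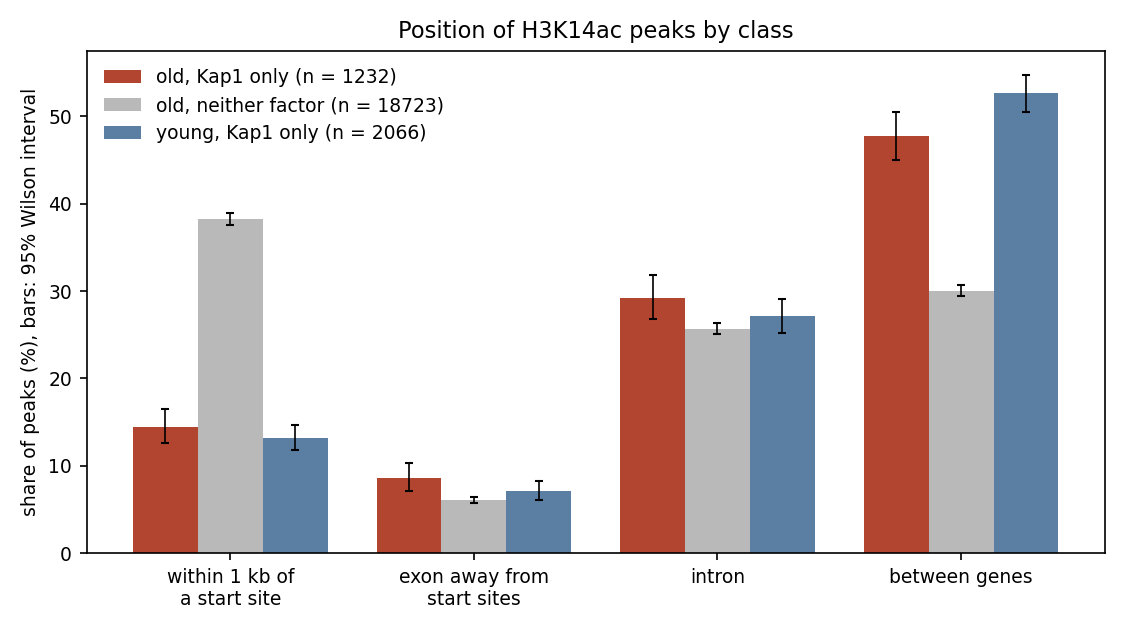
Share of H3K14ac peaks (%, vertical axis) in 4 positions relative to GENCODE genes, for old H3K14ac/Kap1 regions, old peaks with neither factor and young H3K14ac/Kap1 regions, with 95% Wilson intervals for counting error. Old and young regions with Kap1 only stood at 14.4% and 13.2% near start sites, below the 38.2% of peaks with neither factor.

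Base composition differed between the classes as well, and its link with position was not tested. Among regions of 500 bp the median GC content was 44.8%, against 49.6% for peaks with neither factor and 44.8% for young regions. The median ratio of observed to expected CpG was 0.134, against 0.233 with neither factor. A CpG-island-like composition (GC over 50% and a ratio over 0.6) was found in 3.17% (2.27% to 4.42%) of the regions and in 28.4% of peaks with neither factor. In young regions the share was 1.28% (0.854% to 1.91%). Old regions in the blocks of 10 or more had 1.12% and those outside 4.72%. Soft-masked repeats made up a median of 24.6% of a region and 9.80% of a peak with neither factor. The hexamer TGCCGC, bound by the KRAB zinc finger protein Zfp57 at imprinted genes, was searched on both strands. It was present in 4.32% of the 500 bp regions, in 16.2% of the 500 bp peaks with neither factor and in 4.06% of the young regions. A match describes these letters and not a bound site, and the hexamer itself holds a CpG.

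The regions were clustered along the genome, and 1 chromosome stood out. Chromosome 4 held 359 of them (29.1%), or 2.29 per Mb against 0.5003 per Mb over chromosomes 1 to 19. Of the old H3K14ac peaks on chromosome 4, 19.5% were H3K14ac/Kap1 regions, and the median chromosome had 4.65%. Chromosomes 13 and 8 followed by share, with 8.47% and 7.88%, and chromosomes 15 and 11 had least, with 1.43% and 1.58%. In young liver, too, chromosome 4 had the highest share, 23.97%. The 1 Mb bins with most regions were chr4:147000001-148000000 with 102 of 137 H3K14ac peaks, chr4:146000001-147000000 with 66 of 75, chr1:88000001-89000000 with 41 of 53, chr4:122000001-123000000 with 40 of 77 and chr4:3000001-4000000 with 38 of 69.

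**Figure D3:**
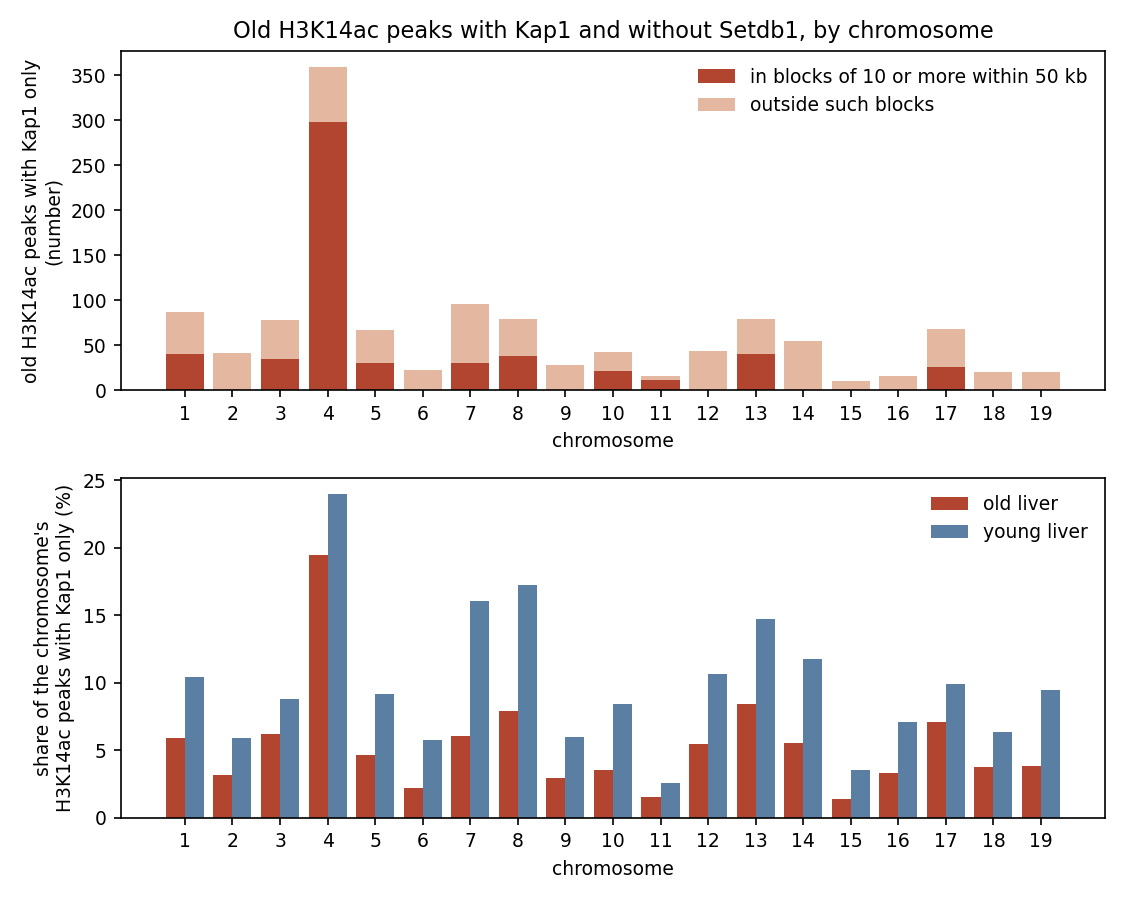
Upper panel, number of old H3K14ac/Kap1 regions per chromosome, split into those in blocks of 10 or more within 50 kb and those outside. Lower panel, share of each chromosome's H3K14ac peaks with Kap1 only (%) in old and young liver. Chromosome 4 held 359 regions and had the highest share at both ages, 19.5% and 23.97%, and outside blocks it held 61.

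When regions within 50 kb of one another were chained, 574 of the 1232 (46.6%) fell into 24 blocks of 10 to 86 regions. The blocks spanned 2.62 Mb in all, 10.9 to 388 kb each, and 10 of them lay on chromosome 4. This definition was chosen after the clusters were seen. Of the 882 old H3K14ac peaks in the blocks, 65.1% were H3K14ac/Kap1 regions, against 3.42% of the 19238 outside them. On chromosome 4 the share outside blocks was 4.22%. Since blocks were picked for their density of regions, this contrast describes the choice. Of other peaks, 1.51% of H3K14ac peaks with neither factor and 4.29% of old Kap1 peaks lay in the blocks. The blocks held 49 of the 13678 autosomal old Setdb1 peaks, or 18.7 per Mb against 5.55 per Mb over chromosomes 1 to 19, and 8 blocks held none. For old Kap1 the densities were 351 and 8.69 per Mb and for old H3K14ac 337 and 8.17 per Mb.

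The largest blocks are given with their genes. Block 1, chr4:147231258-147619341, held 86 regions among 108 H3K14ac peaks and runs through C230088H06Rik, Gm26624 and the zinc finger genes Zfp982 and Zfp985. Block 2, chr4:146427088-146541282, held 47 of 54 and runs through the long noncoding RNA gene Gm26573 and the zinc finger genes Zfp992 and Zfp981. Block 3, chr1:88211551-88310706, held 41 of 53 and runs from the 3' part of Ugt1a over Mroh2a and Hjurp into the 5' part of Trpm8. Block 4, chr4:61806304-61901850, held 38 of 42 and lies on Mup5, a gene of the major urinary proteins that liver secretes, and its pseudogenes. Blocks 5 (37 of 44) and 7 (31 of 44) touched only the predicted genes Gm12892 and Gm18262. The chitinase-like genes Chil3, Chil4 and Chia1 (block 6, 35 of 69), the sperm motility kinase genes Smok2a and Smok2b (block 8, 26 of 28) and the beta-defensin genes around Defb33 (block 9, 24 of 38) and around Defb1 (block 16, 14 of 33) made further blocks. Block 14 (17 of 39) lay at Tpcn2, a cation channel of lysosomes, and block 22 (10 of 24) at Cacna2d1, a calcium channel subunit.

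The blocks were set side by side at both ages, without a test. The share of H3K14ac peaks with Kap1 only ranged from 32% to 100% between blocks in old liver, with a median of 68.6%. With young lists over the same spans it ranged from 30% to 100%, with a median of 69.3%. It was higher in old liver in 9 blocks and higher in young liver in 14. Chained in the same way, 1015 of the 2066 young regions (49.1%) made 42 blocks, and 20 of the 24 old blocks shared bases with a young one. The Smok2 block had 26 of 28 peaks with Kap1 only in old liver and 28 of 28 in young liver. At chr4:3049813-3091096 (block 11) the old share was 81.8% and the young share 50%, and this block held 3 old and 11 young Setdb1 peaks. In block 23, away from genes on chromosome 10, the shares were 66.7% and 30%, with 2 old and 3 young Setdb1 peaks.

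**Figure D4:**
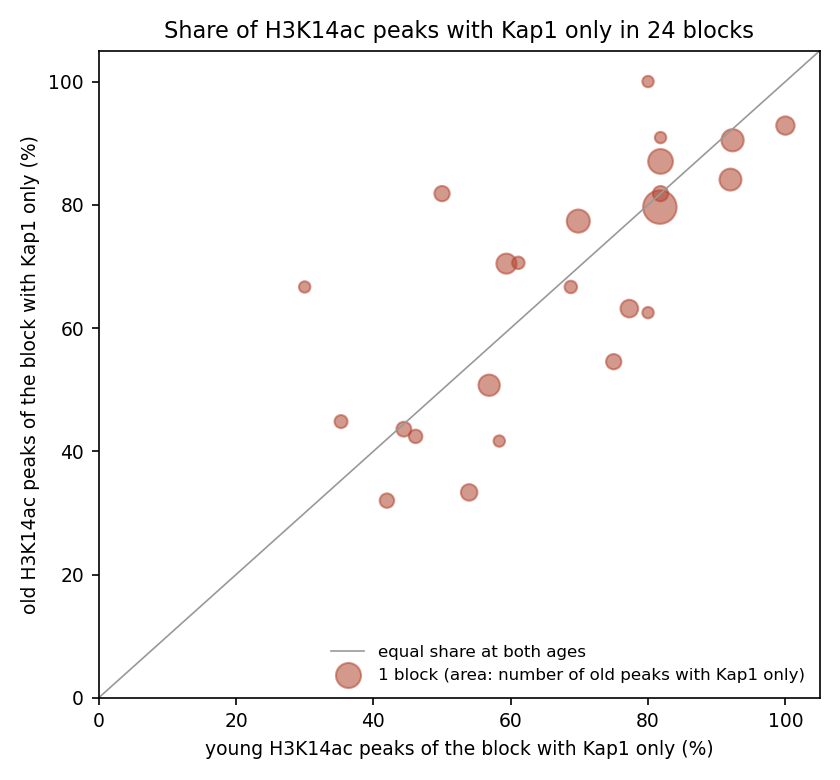
Each circle is 1 of the 24 blocks of old H3K14ac/Kap1 regions, with the share of its H3K14ac peaks on Kap1 only (%) in young liver on the horizontal and in old liver on the vertical axis, and area in proportion to its number of old regions. Medians were 69.3% and 68.6%, and circles lie on both sides of the line of equal shares. The blocks were chosen on old liver.

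Most regions had a Kap1 peak in young liver as well. A young Kap1 peak was shared by 869 of the 1232 (70.5%, 67.9% to 73.0%), a young H3K14ac peak by 657 (53.3%, 50.5% to 56.1%) and a young Setdb1 peak by 101 (8.20%, 6.79% to 9.86%). Among peaks with neither factor the shares were 4.91%, 17.6% and 1.58%, and among the 67 old peaks with both factors they were 89.6%, 76.1% and 58.2%. Peaks with neither factor lacked old Kap1 and Setdb1 by definition, so their low young Kap1 share is partly built into the rule. Taken by combination, 518 regions (42.0%) had young H3K14ac and Kap1 without Setdb1, as in old liver, 267 (21.7%) had young Kap1 alone, 71 (5.76%) young H3K14ac alone and 275 (22.3%) no young peak of any list. All 3 young peaks were present at 63 regions (5.11%), of which 39 were in blocks. The width of peaks entered these shares. With each peak cut or extended to 200 bp at its centre, 48.1% of 701 regions shared a young Kap1 peak and 37.2% a young H3K14ac peak. Among regions of exactly 500 bp, 66.4% shared a young Kap1 peak and 47.7% a young H3K14ac peak, against 4.81% and 17.0% of 500 bp peaks with neither factor. On the Kap1 side, 63.9% of the 1050 old Kap1 peaks at the regions shared a base with a young Kap1 peak, whereas 14.4% of those away from H3K14ac did. The former were wider, with a median of 285 bp against 150 bp, and shares matched for Kap1 width were not computed.

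Regions in blocks and regions outside them differed in this. In blocks 88.2% (85.3% to 90.5%) shared a young Kap1 peak and 73.2% (69.4% to 76.6%) a young H3K14ac peak. Outside blocks the shares were 55.2% (51.3% to 58.9%) and 36.0% (32.4% to 39.8%), both still above those of the peaks with neither factor. The latter class had no old Kap1 by definition. No young peak of any list lay on 6.27% of the regions in blocks and on 36.3% of those outside. For young Setdb1 the shares were alike, 8.71% (6.67% to 11.3%) and 7.75% (5.94% to 10.05%). Regions of 1 block are neighbours and share their surroundings, so these intervals are too narrow, and the difference was not tested.

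**Figure D5:**
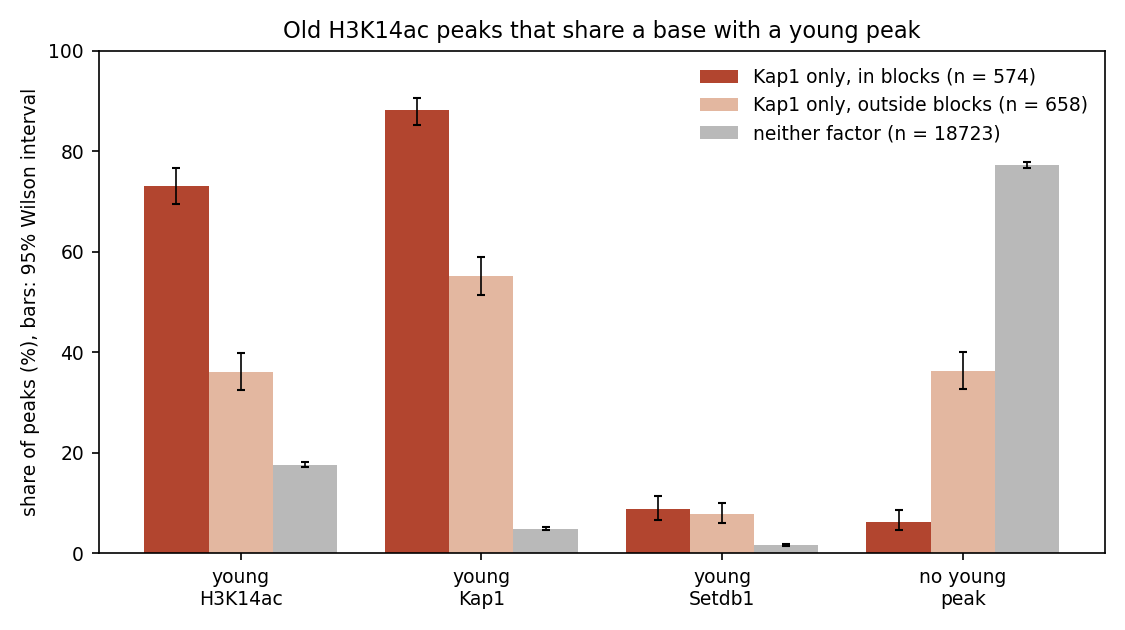
Share of old H3K14ac peaks (%, vertical axis) that shared a base with a young H3K14ac, Kap1 or Setdb1 peak or with none, for H3K14ac/Kap1 regions in and outside blocks and for peaks with neither factor, with 95% Wilson intervals for counting error. Young Kap1 was shared by 88.2%, 55.2% and 4.91%, the last class being without old Kap1 by definition.

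Split by what lay there in young liver, the regions are given by width, place and gene, without a test. The 518 regions with young H3K14ac and Kap1 and without young Setdb1 shared a median of 431 bp with Kap1, 26.4% were wider than 500 bp, 67.6% lay in blocks and 227 were on chromosome 4. By gene, 52 of them lay in Gm26573, 51 in C230088H06Rik, 19 in Zfp981 and 16 in Trpm8. The 267 regions with young Kap1 and no young H3K14ac shared a median of 215 bp, and 41.2% lay in blocks. Their nearest young H3K14ac peak was a median of 1579 bp away. They included 7 in C230088H06Rik, 6 in Gm26624 and 5 in Gm26573, 4 each in Tpcn2, in Phf24, a PHD finger gene, and in Ccdc7a, a coiled-coil gene, and 3 in the chitinase-like gene Chil3. The 71 with young H3K14ac alone included 3 in Ptdss1, a phosphatidylserine synthase, 2 in Ezr, which encodes the membrane linker ezrin, and 2 each in Zfp773, C230088H06Rik and Mup5. Their nearest young Kap1 peak was a median of 601 bp away.

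Among these classes, which leave out the 101 regions with young Setdb1, the 275 regions without any young peak were the narrowest. Of these, 5 (1.82%) were wider than 500 bp, the median overlap was 150 bp and 68.4% lay on a Kap1 peak of 150 bp. Only 13.1% were in blocks, 33 were on chromosome 4 and 5.09% had a further copy, against 16.0% of those with young H3K14ac and Kap1. Their share at start sites (1 kb) was 13.5% (37 regions). It was 15.8% with young H3K14ac and Kap1, 13.1% with young Kap1 alone and 11.3% with young H3K14ac alone. In the same order, 40.5%, 59.2% and 39.4% of those classes lay between genes and 35.9%, 21.0% and 35.2% in introns. Of the 275 regions, 52.4% lay between genes and 25.1% in introns, and these differences were not tested. Ccr2, a chemokine receptor of monocytes, had 3 of them, the most of any gene. Hif3a, a hypoxia-inducible factor gene, the defensin gene Defb2 and Fgf14, a fibroblast growth factor homologous factor, had 2 each. The nearest young H3K14ac peak was a median of 4769 bp and the nearest young Kap1 peak 1735 bp away. Since wide peaks share bases more easily, width and presence at both ages cannot be told apart here.

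Near-copies in the genome accompanied the regions. Only uniquely aligned reads entered the peaks. Still, 132 regions (10.7%, 9.11% to 12.6%) had a further copy of at least 90% of their length at 95% identity or more, against 0.625% of peaks with neither factor, 9.39% of young H3K14ac/Kap1 regions and 11.9% of the 67 old peaks with both factors. At 50% of the length and 80% identity it was 18.99% against 1.127% with neither factor and 23.9% with both. Block 1 held 30 of the 132 and block 2 held 14, whereas the Trpm8 and chitinase blocks (3 and 6) held 0. Without the copied peaks 68.5% of the regions shared a young Kap1 peak, against 70.5% of all regions. The part of copied sequence in the overlap was not tested.

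A region lay in or within 1 kb of 381 of 51229 autosomal genes (0.744%), whereas any old H3K14ac peak lay there in 20.2% and any old Kap1 peak in 9.96%. The lists differ in size (1232 regions, 20120 H3K14ac peaks and 21390 Kap1 peaks), so these shares are not a like comparison. Of protein-coding genes, 1.12% had a region, 37.7% an H3K14ac peak and 16.2% a Kap1 peak. C230088H06Rik had 64 regions among 75 H3K14ac peaks, Gm26573 62 of 69 and Gm26624 48 of 57. All 3 are long noncoding RNA genes of chromosome 4, where they overlap blocks 1, 2 or 21 and other genes. Among protein-coding genes Trpm8, the cold-sensing ion channel of sensory neurons, and Zfp981 had most, each with 20 (of 27 and 22 H3K14ac peaks). Of the Trpm8 regions, all 20 lay on a young H3K14ac peak and 19 on a young Kap1 peak, and for Zfp981 both counts were 20. The antisense RNA gene 1700095A21Rik, which overlaps Zfp981, had 17 of 19, Mroh2a 13 of 16, Sfi1 10 of 16, the noncoding RNA gene Platr16 9 of 14 and the long noncoding RNA gene 2700054A10Rik 8 of 18. In Sfi1, 9 regions lay on a young H3K14ac peak and 10 on a young Kap1 peak.

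Zinc finger genes, many of which encode the proteins that recruit Kap1, were taken as protein-coding genes with a matching symbol, which leaves out Mzf1, Gm14412 and the pseudogene Zfp783. They held 50 of the regions (4.06%, 3.09% to 5.31%), against 1.92% of peaks with neither factor and 3.19% of young regions. Of these, 40 were on chromosome 4, 38 were in blocks, and 10 lay on an exon away from start sites. Without blocks the share was 1.82%. With genes of any type, 16 of 490 had a region, and the regions numbered 51. By gene, 15 of 461 (3.25%, against 1.12% of protein-coding genes) had a region, while 213 (46.2%, against 37.7%) had an old H3K14ac peak and 97 (21.0%, against 16.2%) an old Kap1 peak. After Zfp981 came Zfp992 (5 regions), Zfp982 and Zfp985 (4 each), Zfp984 (3) and Zfp180, Zfp600, Zfp773 and Zfp950 (2 each). Zfp992 had the widest of these, 4200 bp, with a Kap1 peak of 4190 bp. At Zfp180, regions at chr7:24106373-24106872 and chr7:24106829-24107328 overlapped each other in the same exon and shared 193 and 355 bp with 1 Kap1 peak of 504 bp. The exon is the last of the gene. Both lay on a young H3K14ac peak, and the first on a young Kap1 peak of 579 bp.

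Of the windows that the study names by coordinates, 4 of 14 held a region, 6 regions in all, at Gm14412, Zfp180 and Gm49692. At Gm14412 there were 3 in the window, of 1003, 500 and 730 bp. Each lay on a young H3K14ac and a young Kap1 peak, and the one of 730 bp also on a young Setdb1 peak of 1404 bp. The nearest old Setdb1 peak was 240028 bp or more away from each. At Gm49692 an H3K14ac peak of 4337 bp lay whole within a Kap1 peak of 4772 bp, and young H3K14ac, Kap1 and Setdb1 peaks of 4292, 4858 and 4748 bp covered the same place. In the deposited list of old Setdb1 peaks the nearest call was 323690 bp away.

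Chemoreceptor genes, which are read in sensory neurons of the nose, are given by family. Of the protein-coding vomeronasal receptor genes 10 of 329 had a region (3.04%, against 1.12% of protein-coding genes), 47 an old H3K14ac peak (14.3%, against 37.7%) and 100 an old Kap1 peak (30.4%, against 16.2%). With pseudogenes and other types, 15 of 561 (2.67%) had a region. Vmn2r-ps159 and Vmn2r7 had 2 each, and Vmn1r68, Vmn1r181, Vmn1r199, Vmn2r18, Vmn2r86, Vmn2r87, Vmn2r114 and Vmn2r117 had 1. Of the protein-coding olfactory receptor genes 4 of 1128 (0.355%) had a region, namely Olfr820, Olfr827, Olfr916 and Olfr1497, while 54 (4.79%) had an old H3K14ac peak and 144 (12.8%) an old Kap1 peak.

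Among lists of genes of liver function, only the cytochrome P450 list had regions. Of its 94 genes 3 (3.19%, against 1.12% of protein-coding genes) had 1 each, Cyp2c29, Cyp2c55 and Cyp2c69, of 1 cluster on chromosome 19. The Kap1 peak was 150 bp wide in each, and only the region in Cyp2c29 lay on a young H3K14ac peak. Of the 94 genes, 34 had an old H3K14ac peak (36.2%, against 37.7% of protein-coding genes) and 20 an old Kap1 peak (21.3%, against 16.2%). None of 15 apolipoprotein genes, 37 nuclear receptor genes, 15 hepatocyte transcription factor genes and 40 lipid metabolism genes had a region, although 8, 26, 13 and 29 of them had an old H3K14ac peak. Nuclear receptor genes had a Kap1 peak in 9 cases and lipid metabolism genes in 4. Nor did histone genes (75), ribosomal protein genes (75), clustered protocadherin genes (57), the 32 genes of Kap1, Setdb1 and heterochromatin or the 13 of H3K14 acetyltransferases and readers have one. With 1.12% of protein-coding genes holding a region, few or none would be found in lists this short. Of 66 imprinted genes 1 had a region, Copg2, where the Kap1 peak was 567 bp in old and 569 bp in young liver.

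Outside blocks, 57 regions lay within 1 kb of a protein-coding start site. The genes named here were chosen after the list was seen. At Nfic, a nuclear factor I gene, at Tcf21 and at Rfx6, regions of 500 bp shared most or all of a Kap1 peak of 150 bp, and none lay on a young H3K14ac peak. At Crx, a photoreceptor transcription factor gene, the shared stretch was 407 bp, and a young H3K14ac peak of 500 bp lay there. At Coil, which encodes the coilin of Cajal bodies, an H3K14ac peak of 795 bp lay whole within a Kap1 peak of 1005 bp, with young peaks of 905 and 933 bp. At Csf2ra, a subunit of the receptor for granulocyte-macrophage colony-stimulating factor, an H3K14ac peak of 1103 bp shared 45 bp with a Kap1 peak of 246 bp.

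Old Setdb1, which the rule kept off the regions, was still nearer to them than to the peaks with neither factor. It lay within 1 kb of 54 regions (4.38%, 3.37% to 5.68%) and within 10 kb of 325 (26.4%, 23.995% to 28.9%), against 1.29% and 11.1% of the peaks with neither factor. The median distance was 31853 bp for regions and 69173 bp for peaks with neither factor. At 615 bp from a region in Mroh2a and 403 bp from a region in an exon of Zfp981, old Setdb1 peaks lay inside blocks 3 and 2. In young liver, where the Setdb1 list held 50583 peaks against 13877, the 101 regions with a young Setdb1 peak included 3 each in C230088H06Rik, Gm14412, Trpm8, Slc30a4, Tmem267 and Gm27878 that had all 3 young peaks.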

How the data were processed

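ChIP-Seq peaks of H3K14ac, Kap1 and Setdb1 were taken from 6 deposited lists. Reads had been mapped by the authors to mm10 (BWA), stripped of duplicates and multiply aligned reads and merged by age, and PeakSeq had called the peaks relative to input. The deposited values are positions (start and end, other than counts or scores), so precision is limited to counting error, given as 95% Wilson intervals, and no test was made. Sex chromosomes were left out. Genes were those of GENCODE vM21 basic on GRCm38. Positions were assigned in the order start site (1 kb), exon, intron, between genes, and genes with 1 kb on either side. Copies were sought with minimap2 2.31-r1302, on the central 500 bp of wide peaks. Overlap counting was tested on simulated data against bedtools 2.31.1. Python 3.11.15, numpy 2.4.6 and matplotlib 3.10.9 were used. The regions named were windows given in the study, the 10 genes with most regions, the 10 widest, 10 most and 10 least overlapping regions, list genes, the densest chromosome and bins, and regions with all young peaks. The regions and lists were chosen with earlier results of these data known. Alternatives changed the overlap, the distance to Setdb1, peak widths, merging, chromosomes, copies, start site and gene windows.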

Additional observations from a re-analysis of the deposited data

Results flagged for a closer look

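Outside chromosomes 1 to 19, to which the comparisons of the report were limited, 58 old H3K14ac peaks lay on a Kap1 peak and on no Setdb1 peak. Of these, 42 were among the 311 H3K14ac peaks of chromosome X (13.5%) and 16 among the 32 of chromosome Y (50%). They were noted because they are a signal in peaks outside those comparisons, counted otherwise only in the alternative with all chromosomes, and no control sample of this kind was analysed here.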

How the results depend on the processing

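Of 64 values under alternatives, 40 stayed within the 95% interval of the reported value, or within 1.5 times the reported number of regions, and 24 did not. With at least 50% of the Kap1 peak covered, there were 763 regions (3.79% of H3K14ac peaks), 45.9% on a young H3K14ac and 64.1% on a young Kap1 peak. With a gap of up to 500 bp to Kap1 the share of H3K14ac peaks was 8.83%, with 44.3% and 59.0% on young peaks. With each peak cut or extended to 200 bp at its centre there were 701 regions (3.48%), with 37.2% and 48.1% on young peaks and 6.28% on exons away from start sites. With H3K14ac peaks of exactly 500 bp the share was 5.29%, with 47.7% and 66.4% on young peaks. With neighbours within 1000 bp merged it was 5.16%, with 45.5% and 64.6%. Without copied peaks the share was 5.54%. A start site window of 5 kb gave 37.3%. Leaving out the blocks, an alternative chosen after seeing the data, left 658 regions, 1.82% of them in a zinc finger gene, with 36.0% and 55.2% on young peaks. Asking for no Setdb1 peak within 1000 bp, using all chromosomes and using the gene body alone moved no value past these bounds. Alternatives for overlap, Setdb1 distance, peak width, merging, copies and blocks compared fewer regions, except the gap of 500 bp, which let in more distant ones. No paired analysis was possible because each list pools the livers of an age. Depth per peak is unknown, so weak peaks cannot be told from absent ones.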
